A study of Homo sapiens with 17 samples.

Results

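The comparison described here is between A549 cells given wild-type LKB1 and A549 cells given the empty pBABE vector, measured on 3 arrays per group. Arrays were chosen by their titles (A549-LKB1 and A549-pBABE), and they are 6 of the 17 arrays in the series. A549 is a human lung adenocarcinoma line that lacks functional LKB1. Cells of every group carried a stably integrated pBABE retrovirus and had spent 2 weeks in 1 µg/mL puromycin, so the vector controls carry the virus and the drug selection too. The retrovirus held wild-type LKB1, no insert, or, in the kinase-dead control group of 3 A549 arrays, the LKB1 mutant K78I. H2122, a second lung adenocarcinoma line without functional LKB1, was treated in the same way and had 3 arrays with LKB1 and 2 with pBABE. Cells were grown in 5% fetal bovine serum and harvested in logarithmic growth, and each array was started from 130 ng of total RNA. The stated aim of the study was to set expression differences measured with LKB1 in culture beside those that go with LKB1 loss in resected tumours; the tumours were not analysed here.

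LKB1, the product of STK11, is a serine/threonine kinase and tumour suppressor that is often inactivated in lung adenocarcinoma. Together with STRAD and MO25 it phosphorylates and switches on AMPK and the related NUAK, MARK, BRSK and SIK kinases. Active SIKs phosphorylate the CRTC coactivators and hold them in the cytoplasm, away from CREB, the factor that binds cyclic AMP response elements. NUAK and MARK kinases act on cell adhesion, polarity and the cytoskeleton.

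STK11 did not separate the groups as their titles say. Its log2 level was 9.42, 10.23 and 9.62 on LKB1 arrays 1, 2 and 3, and 6.88, 7.38 and 10.52 on the arrays labelled pBABE 1, 2 and 3. The array labelled pBABE replicate 3 was therefore above every LKB1 array, and the groups overlapped. STK11 differed by 1.5 ± 0.84 (SE) with a limma adjusted p of 0.394, and an exact two-sided permutation test over the 20 regroupings gave p = 0.4, where 0.1 is the smallest value that 3 against 3 arrays allow. Without the array labelled pBABE replicate 3 the difference in STK11 was 2.63; since that array is set aside for its own STK11 level, this is a description with no test. In the K78I group the levels of STK11 were 10.54, 7.14 and 10.42, so the array labelled K78I replicate 2 also went against its label. The probe set reads wild-type and mutant STK11 alike. No array was moved to another group. Some results are also given without the array labelled pBABE replicate 3, and results without such a second value can change too. The labels do not say whether each replicate was its own culture. The p-values therefore reflect only how far arrays scatter within groups, which may be technical. For limma that scatter is taken over all 17 arrays, those of H2122 included.

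The 6 arrays had like distributions, with medians between 5.65 and 5.69 on the log2 scale. Pairs of LKB1 arrays differed across genes by an SD of 0.229 to 0.326, pairs of pBABE arrays by 0.293 to 0.455, and LKB1 from pBABE arrays by 0.393 to 0.633. Of the A549 identity list, 0 of 9 measured genes passed the test, beside 5.5% of all genes. KRT18, a simple-epithelium keratin, was at 12.76 ± 0.22 with LKB1 and 12.93 ± 0.19 with pBABE (SD, n = 3 each). KRT19, another keratin on the list, was at 5.07 ± 0.43 and 4.48 ± 0.34.

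Among 17958 genes tested, 987 passed a limma adjusted p of 0.05, which is 5.5%. In what follows "rose", "fell" and "called" refer to this test. Differences are log2 values of LKB1 minus pBABE ± SE, and adjusted p-values are limma's over all genes. Levels on single arrays are log2 values in the order of replicates 1, 2 and 3. The SE comes from a spread per gene shared by all 17 arrays. For a gene that is steady in H2122 it can thus be smaller than the A549 arrays alone would give. With the 9 A549 arrays alone 548 genes were called. The called genes divided into 678 that rose with LKB1 (3.78%) and 309 that fell (1.72%), or 569 and 384 with median centring. At least a 2-fold change, or 1 unit on the log2 scale, was reached by 319 of the genes that rose (1.78% of all) and 133 of those that fell (0.741%). The median difference over all genes was -0.03, and 17.8% of genes had an unadjusted p under 0.05. Every LKB1 array lay beyond every pBABE array for 4858 genes (27.1%), with LKB1 higher for 13.2% and lower for 13.8% of all genes. The same held for 984 of the 987 called genes (99.7%), of which 68.6% of the 987 were higher and 31.1% lower. Groups without overlap thus add little to a call. They were also required when the highest and lowest called differences were picked, so for genes named on that ground they are no result. Leaving out each of the 6 arrays in turn, 423 genes were called every time, 313 higher and 110 lower. The count was 505 without the array labelled pBABE replicate 2, 524 without LKB1 replicate 3, 560 without pBABE replicate 1, 608 without LKB1 replicate 1 and 1093 without pBABE replicate 3.

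**Figure D1:**
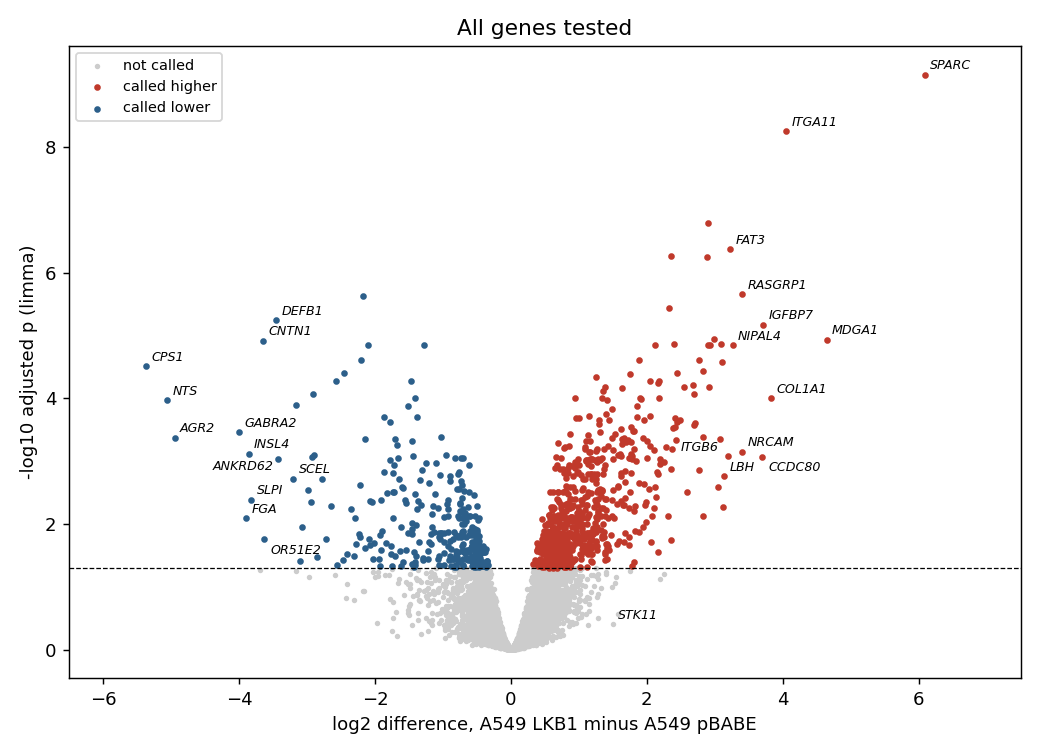
Each point is one of 17958 genes; the x axis is the log2 difference of A549 LKB1 minus A549 pBABE, the y axis minus log10 of the limma adjusted p, and the dashed line is the 0.05 threshold. SPARC lies farthest right at 6.09, CPS1 farthest left at -5.37, and STK11 is below the threshold at 1.5.

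SPARC, a secreted collagen-binding matricellular glycoprotein, rose more than any other gene. Its log2 level was 9.75, 10.65 and 10.59 with LKB1 and 4.12, 4.0 and 4.61 with pBABE. The groups were far apart, and the array labelled pBABE replicate 3 stood with the other vector arrays. SPARC differed by 6.09 ± 0.22 (SE), with a limma adjusted p of 6.94e-10. The K78I arrays read 4.31, 3.85 and 4.18 for SPARC, within the range of the pBABE arrays or just below it.

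COL1A1, the alpha 1 chain of fibrillar type I collagen, was at 10.02, 10.78 and 10.36 with LKB1 and at 5.71, 6.18 and 7.81 with pBABE. The lowest LKB1 array was above the highest pBABE array, as was required of the highest differences named. That pBABE array was the one labelled replicate 3. COL1A1 rose by 3.82 ± 0.43 (SE) with a limma adjusted p of 9.88e-05. COL1A2, which encodes the partner chain of type I collagen, differed by 0.02 ± 0.10 with an adjusted p of 0.966, and its 6 arrays ran from 4.22 to 4.45. COL3A1, of fibrillar type III collagen, differed by 0.03 ± 0.10.

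Of 24 collagen chains measured, 6 rose and 0 fell, beside 3.78% and 1.72% of all genes, and the median over the list was 0.02. Besides COL1A1 these were COL4A2 (1.77 ± 0.24) and COL4A1 (1.89 ± 0.32), the paired chains of basement membrane collagen, COL5A1 (1.61 ± 0.26), COL6A1 (0.97 ± 0.20) and COL18A1 (0.96 ± 0.22). COL4A1 read 6.89, 8.35 and 7.71 with LKB1 and 5.37, 5.92 and 5.99 with pBABE. Its groups did not overlap, which held for 99.7% of called genes. COL18A1 lost the call without LKB1 replicate 2, LKB1 replicate 3, pBABE replicate 1 or pBABE replicate 2 (adjusted p 0.0595 to 0.0774).

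Enzymes that process collagen rose in part: 4 of 20 measured rose (20%, beside 3.78% of all genes), 0 fell, and the median was 0.02. LOXL2, a lysyl oxidase that crosslinks collagen, was at 9.57 ± 0.44 with LKB1 and 6.50 ± 0.92 with pBABE (SD, n = 3 each), and rose by 3.07 ± 0.41 (adjusted p 0.000435). Its groups did not overlap, which held for 99.7% of called genes. Its relative LOXL4 rose by 1.39 ± 0.15, P4HA3, a prolyl hydroxylase subunit, by 1.44 ± 0.18, and BMP1, the procollagen C-proteinase, by 0.83 ± 0.16. The same 4 genes were called in each fit that left out 1 array.

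Of 36 matricellular proteins, matrix glycoproteins and proteoglycans, 10 rose (27.8%, beside 3.78% of all genes) and 0 fell, and the median was 0.19. Without the array labelled pBABE replicate 3 the counts were 10 and 3. IGFBP7, a secreted protein that binds insulin-like growth factors and matrix, read 9.40, 9.27 and 9.57 with LKB1 and 5.40, 5.68 and 6.03 with pBABE, and rose by 3.71 ± 0.30 (adjusted p 6.64e-06). Both groups were tight for IGFBP7, with the pBABE arrays well below. CCDC80, a secreted matrix-associated protein, read 10.53, 10.61 and 10.61 with LKB1 and 5.77, 6.51 and 8.41 with pBABE. The LKB1 arrays agreed closely for CCDC80, while the array labelled pBABE replicate 3 was the nearest to them, and the gene rose by 3.69 ± 0.54 (adjusted p 0.000857). LTBP2, a microfibril-associated protein, rose by 2.04 ± 0.21. SPOCK1, a testican proteoglycan, rose by 3.13 ± 0.59, CCN2, a connective tissue growth factor, by 2.25 ± 0.34, EFEMP1, a fibulin, by 1.83 ± 0.35, and MATN2, a matrilin, by 1.74 ± 0.33. TGFBI (0.86 ± 0.19) was called but not without LKB1 replicate 3, pBABE replicate 1 or pBABE replicate 2 (adjusted p 0.0555 to 0.065). FN1, fibronectin, differed by 1.76 ± 0.50 and had an adjusted p of 0.0562.

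Among 27 integrins and laminins 6 rose (22.2%) and 1 fell (3.7%), beside 3.78% and 1.72% of all genes, and the median was 0.01. ITGA11, the alpha subunit of a collagen-binding integrin, was at 7.77, 8.45 and 8.51 with LKB1 and at 4.09, 4.16 and 4.32 with pBABE. No pBABE array came near the LKB1 arrays, and ITGA11 rose by 4.05 ± 0.18 (adjusted p 5.55e-09). ITGB6, the beta subunit of an epithelial integrin that activates TGF-beta, was at 9.57, 9.55 and 9.63 with LKB1 and at 5.55, 5.74 and 7.90 with pBABE. Here too the array labelled pBABE replicate 3 was the highest of its group, and ITGB6 rose by 3.19 ± 0.47 (adjusted p 0.000835). ITGAV, the alpha partner of ITGB6 and ITGB3, rose by 1.62 ± 0.24, and ITGB3 by 1.90 ± 0.21. ITGA3 and ITGB4, parts of laminin receptors, rose by 1.25 ± 0.21 and 1.48 ± 0.27. ITGB5, another partner of ITGAV, fell by 0.86 ± 0.20, a call lost without LKB1 replicate 2, LKB1 replicate 3, pBABE replicate 1 or pBABE replicate 2 (adjusted p 0.0631 to 0.0756).

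**Figure D2:**
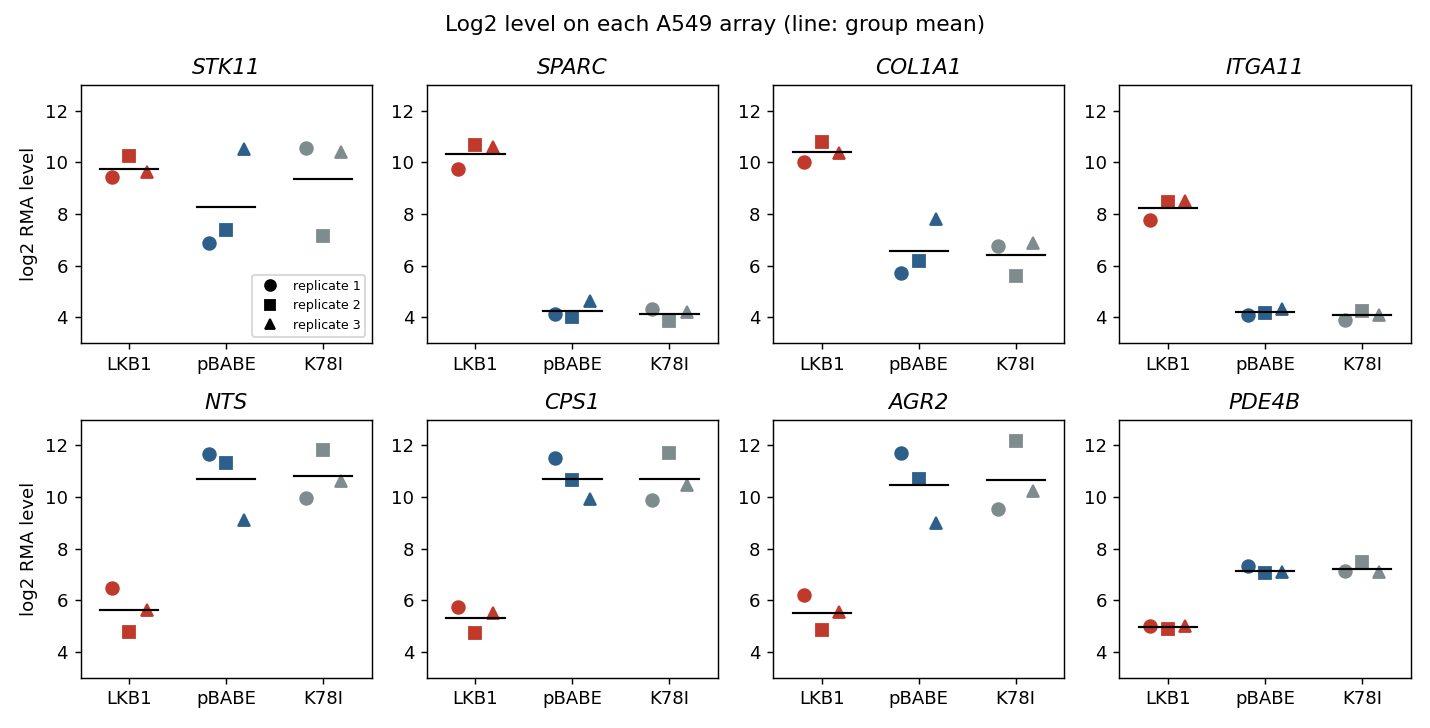
Log2 RMA level (y axis) of 8 genes on each A549 array, by group (x axis: LKB1, pBABE, K78I); the symbol gives the replicate number and the black line the mean of 3 arrays. STK11 is high on the array labelled pBABE replicate 3 (10.52) and low on that labelled K78I replicate 2 (7.14), while SPARC, ITGA11 and PDE4B keep the LKB1 arrays apart from the 6 control arrays.

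MDGA1, a membrane-anchored adhesion protein of the immunoglobulin family, read 9.43, 9.97 and 9.77 with LKB1 and 4.39, 4.79 and 6.03 with pBABE. It rose by 4.65 ± 0.40 (adjusted p 1.17e-05). Its groups did not overlap, which was required of the highest differences named and is no result. NRCAM, a neuronal cell adhesion molecule, read 7.38, 8.41 and 8.09 with LKB1 against 3.96, 3.87 and 5.83, and rose by 3.41 ± 0.49. The highest pBABE array for NRCAM was again the one labelled replicate 3. RASGRP1, a guanine nucleotide exchange factor, rose by 3.40 ± 0.25, from 4.99 to 6.37 on the pBABE arrays to between 8.73 and 9.23 with LKB1. FAT3, an atypical cadherin, rose by 3.22 ± 0.20, with pBABE arrays at 3.56 to 4.45 and LKB1 arrays at 6.97 to 7.27. NIPAL4, a putative magnesium transporter of skin, rose by 3.27 ± 0.29, and LBH, a transcription cofactor of limb bud and heart, by 3.14 ± 0.51. SLC2A12, a glucose transporter named here after its values were seen, rose by 3.09 ± 0.28.

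The largest fall was that of CPS1, the mitochondrial carbamoyl phosphate synthetase that opens the urea cycle. It read 5.74, 4.73 and 5.51 with LKB1 and 11.52, 10.65 and 9.91 with pBABE. The highest LKB1 array for CPS1 was below the lowest pBABE array, as was required of the lowest differences named. The gene fell by 5.37 ± 0.53 (adjusted p 3.07e-05). Of the 37 hepatic metabolism and plasma protein genes measured, 8 fell (21.6%, beside 1.72% of all genes) and 0 rose, and the median was -0.19. The count of lower members was 4 without LKB1 replicate 2 or pBABE replicate 1, 5 without LKB1 replicate 3 or pBABE replicate 2, and 11 without the array labelled pBABE replicate 3, and the members called lower in every such fit numbered 4.

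C3, the central complement component, read 6.29, 5.71 and 6.52 with LKB1 and 9.21, 9.38 and 8.68 with pBABE, and fell by 2.91 ± 0.32 (adjusted p 8.4e-05). VTN, the plasma adhesion protein vitronectin, fell by 2.78 ± 0.46. FGA, the fibrinogen alpha chain, read 4.97, 3.99 and 4.47 with LKB1 and 10.14, 8.64 and 6.33 with pBABE. The vector arrays were spread over more than 3 log2 units for FGA, which fell by 3.90 ± 0.79 (adjusted p 0.0081). That call was lost when the 9 A549 arrays were fitted alone (adjusted p 0.071). FGB, the beta chain, differed by -2.97 ± 0.90 with an adjusted p of 0.0709. RBP4, the retinol carrier, fell by 3.07 ± 0.65, and was not called without LKB1 replicate 2 or pBABE replicate 1 (adjusted p 0.0512 and 0.0522) or in the fits of the 6 arrays or the 9 A549 arrays alone (adjusted p 0.0586 and 0.0853).

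AGR2, a disulfide isomerase needed for mucin production, read 6.19, 4.85 and 5.53 with LKB1 and 11.72, 10.69 and 9.0 with pBABE, and fell by 4.95 ± 0.66 (adjusted p 0.000422). Its groups did not overlap, which was required of the lowest differences named. The array labelled pBABE replicate 3 was the lowest of the vector arrays for AGR2. SLPI, a secreted protease inhibitor of airway surfaces, fell by 3.82 ± 0.70, from 10.93, 9.52 and 7.29 with pBABE to 6.31, 4.65 and 5.32 with LKB1. With the 9 A549 arrays alone its adjusted p was 0.0535. Of 33 mucin and secretory epithelium genes 4 fell (12.1%) and 1 rose (3.03%), beside 1.72% and 3.78% of all genes, with a median of -0.20. The lower count was 2 without LKB1 replicate 2, LKB1 replicate 3 or pBABE replicate 1. MUC5B, a gel-forming airway mucin, was at 4.85, 4.92 and 4.94 with LKB1 and at 10.73, 9.0 and 6.08 with pBABE. Its groups did not overlap, which held for 27.1% of all genes. MUC5B was not called, with a difference of -3.70 ± 1.05 and an adjusted p of 0.0539.

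NTS, the precursor of the secreted peptide neurotensin, read 6.49, 4.78 and 5.63 with LKB1 and 11.66, 11.31 and 9.11 with pBABE. All LKB1 arrays were below all pBABE arrays, as was required of the lowest differences named. NTS fell by 5.06 ± 0.58 (adjusted p 0.000107). Among 24 neuropeptide and neuroendocrine genes 3 fell (12.5%) and 1 rose (4.17%), beside 1.72% and 3.78% of all genes, with a median of -0.14. The counts were the same in each fit that left out 1 array. GABRA2, a GABA-A receptor subunit, read 4.16, 4.24 and 3.94 with LKB1 and 9.11, 8.05 and 7.19 with pBABE, and fell by 4.0 ± 0.52. DDC, the aromatic amino acid decarboxylase, read 6.27, 6.31 and 6.29 with LKB1 and 8.57, 9.29 and 8.38 with pBABE, and fell by 2.46 ± 0.25. The LKB1 arrays differed little among themselves for DDC. ENO2, the neuronal enolase, rose by 1.74 ± 0.26.

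CNTN1, a neural contactin, fell by 3.65 ± 0.32, from 10.16, 9.55 and 10.14 with pBABE to 7.17, 5.57 and 6.16 with LKB1. DEFB1, an epithelial antimicrobial defensin, fell by 3.46 ± 0.28, with pBABE arrays between 8.52 and 8.85 and LKB1 arrays between 4.77 and 6.05. For both genes the array labelled pBABE replicate 3 was level with the other vector arrays. SCEL, a cornified envelope precursor, fell by 3.20 ± 0.53. ANKRD62, an ankyrin repeat gene, fell by 3.42 ± 0.51, and by 1.74 where the mean of its probe sets was taken. OR51E2, an olfactory-family receptor, read 5.48, 5.14 and 5.69 with LKB1 and 10.80, 9.66 and 6.76 with pBABE and fell by 3.64 ± 0.83 (adjusted p 0.0175). Without any one of the 6 arrays other than pBABE replicate 3 the call of OR51E2 was lost (adjusted p 0.0549 to 0.0929), as it was in the fits of the 6 arrays (0.0631) and of the 9 A549 arrays alone (0.117).

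Of 25 genes of the LKB1 complex and the AMPK family 3 rose (12%) and 1 fell (4%), beside 3.78% and 1.72% of all genes. With the array labelled pBABE replicate 3 left out, 1 rose and 2 fell. The median with all arrays was 0.02. NUAK1, an LKB1 substrate kinase, read 7.77, 8.39 and 8.11 with LKB1 and 6.52, 6.79 and 6.87 with pBABE, and rose by 1.37 ± 0.22 (adjusted p 0.00135). It was the member called in each fit that left out 1 array. MARK1, a polarity kinase, rose by 0.48 ± 0.12, but not without LKB1 replicate 2 or 3 or pBABE replicate 2 or 3 (adjusted p 0.0778 to 0.127). PRKAA2, the alpha 2 catalytic subunit of AMPK, rose by 0.79 ± 0.21, but not without any array other than pBABE replicate 1 (adjusted p 0.0532 to 0.173). SIK3, a CRTC kinase, fell by 0.81 ± 0.21 and lost the call without any array other than pBABE replicate 3 (adjusted p 0.0752 to 0.131). With the replicate number as a block SIK3 and PRKAA2 also lost it (adjusted p 0.0516 and 0.0826), and median centring of the arrays ended the calls of MARK1 and PRKAA2 (0.0561 and 0.0622).

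Of 26 target genes of CREB and CRTC measured, 8 fell (beside 1.72% of all genes), 1 rose and 17 did not pass the test, and the median difference was -0.84, where it was -0.03 over all genes. Without the array labelled pBABE replicate 3, 12 fell and the median was -1.14. Without pBABE replicate 1 or LKB1 replicate 3 the count was 5, and the median was -0.42 without pBABE replicate 1. Relative to its mean over the 6 arrays, the list stood at 1.30, 0.51 and 0.04 on the arrays labelled pBABE 1, 2 and 3, and at -0.48, -0.67 and -0.70 on LKB1 arrays 1, 2 and 3. A cell cycle list was at -0.49, 0.22 and 0.15 on the same pBABE arrays, and the part of either in the other was not tested.

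INSL4, a relaxin-family peptide, read 4.54, 3.84 and 4.14 with LKB1 and 8.77, 8.38 and 6.95 with pBABE, and fell by 3.86 ± 0.56 (adjusted p 0.000762). All 3 LKB1 arrays lay below all 3 pBABE arrays for INSL4, as was required of the lowest differences named. AVPI1, a small vasopressin-induced protein, read 7.94, 7.41 and 7.78 with LKB1 and 10.81, 10.17 and 9.01 with pBABE. It fell by 2.29 ± 0.46, though not in the fit of the 9 A549 arrays alone (adjusted p 0.0753). RGS2, a GTPase activator that dampens G protein signals, fell by 2.01 ± 0.47. EREG, the EGF receptor ligand epiregulin, fell by 2.23 ± 0.50. RGS2 was not called without LKB1 replicate 1 or 3 or pBABE replicate 1 or 2 (adjusted p 0.0578 to 0.0952), nor EREG without LKB1 replicate 1 or 3 or pBABE replicate 1 (0.0614 to 0.0836). NR4A1, an immediate-early nuclear receptor named after its values were seen, fell by 2.73 ± 0.63 and lost the call without any array other than pBABE replicate 3 (adjusted p 0.0554 to 0.0916). PPARGC1A, the coactivator PGC-1 alpha, was at 5.06, 4.40 and 4.55 with LKB1 and 9.62, 7.91 and 5.97 with pBABE. Its groups did not overlap, which held for 27.1% of all genes. PPARGC1A was not called, with an adjusted p of 0.0569 for a difference of -3.16 ± 0.91. JUNB, an AP-1 subunit, was the member that rose, by 1.19 ± 0.30, and lost the call without any array other than pBABE replicate 3 (adjusted p 0.078 to 0.148).

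The cyclic AMP response element is the sequence through which CREB acts, and the promoters of NTS and of those called members of the CREB and CRTC list that hold it are shown. Because they were chosen for holding an element, its presence in them is no result. The promoters of NR4A1, PDE4B, PDE4D and PDE10A, which also fell, hold neither form and are not printed. Each is the 250 bases before the gene's start, 5′ to 3′ on the gene's strand, from RefSeq on GRCh38.p14. Capitals mark the full element TGACGTCA, which reads the same on both strands, or its short form, TGACG or CGTCA on either strand; each full element also holds both short forms. The windows are chr12:85874045-85874294 (+) for NTS, chr9:5231169-5231418 (+) for INSL4, chr10:97687242-97687491 (-) for AVPI1, chr4:74364895-74365144 (+) for EREG, chr1:192808789-192809038 (+) for RGS2 and chr19:12791236-12791485 (+) for JUNB.
NTS: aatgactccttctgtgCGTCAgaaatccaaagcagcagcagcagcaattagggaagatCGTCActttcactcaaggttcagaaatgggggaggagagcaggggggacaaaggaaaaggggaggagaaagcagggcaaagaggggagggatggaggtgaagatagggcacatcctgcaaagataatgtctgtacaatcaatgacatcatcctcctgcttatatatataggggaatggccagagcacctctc
INSL4: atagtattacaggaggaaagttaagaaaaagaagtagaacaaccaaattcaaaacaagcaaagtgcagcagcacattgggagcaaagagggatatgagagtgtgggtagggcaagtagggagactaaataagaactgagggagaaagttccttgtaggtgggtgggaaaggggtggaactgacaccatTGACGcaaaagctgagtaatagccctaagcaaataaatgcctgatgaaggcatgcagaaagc
AVPI1: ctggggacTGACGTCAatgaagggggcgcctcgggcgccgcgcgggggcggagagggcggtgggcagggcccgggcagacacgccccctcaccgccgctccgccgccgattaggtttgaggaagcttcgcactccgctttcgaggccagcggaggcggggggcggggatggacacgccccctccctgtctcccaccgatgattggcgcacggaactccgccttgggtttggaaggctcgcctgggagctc
EREG: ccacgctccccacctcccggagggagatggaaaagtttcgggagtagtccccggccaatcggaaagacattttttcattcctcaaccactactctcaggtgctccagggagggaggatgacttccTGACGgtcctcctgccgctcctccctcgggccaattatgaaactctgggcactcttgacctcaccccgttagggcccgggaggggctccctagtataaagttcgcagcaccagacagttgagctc
RGS2: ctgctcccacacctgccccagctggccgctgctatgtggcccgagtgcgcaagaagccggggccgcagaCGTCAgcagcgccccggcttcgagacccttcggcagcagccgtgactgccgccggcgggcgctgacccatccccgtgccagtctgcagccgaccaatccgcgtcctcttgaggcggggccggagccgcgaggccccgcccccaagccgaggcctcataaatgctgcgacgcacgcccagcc
JUNB: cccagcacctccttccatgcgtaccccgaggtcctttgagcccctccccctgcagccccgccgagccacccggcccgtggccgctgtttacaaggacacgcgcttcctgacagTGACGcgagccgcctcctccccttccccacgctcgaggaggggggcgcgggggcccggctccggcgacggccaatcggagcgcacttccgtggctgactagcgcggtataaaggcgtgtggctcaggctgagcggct

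AVPI1 was the only 1 of these 6 windows with a full element, starting 242 bases before the gene's start. Short elements began 234 and 192 bases before the start of NTS, 62 before INSL4, 125 before EREG, 181 before RGS2 and 137 before JUNB, the member that rose. The shares that follow count each promoter at its whole length in the source, which also takes in bases after the gene's start. They are therefore not shares of windows like those printed. A full element was present in 1.98% of all 27305 promoters of the same table and a short element in 25.0%. Among promoters of tested genes the shares were 2.67% and 29.8%, among those of 245 genes called lower 5.31% and 35.1%, and among those of 542 genes called higher 1.11% and 23.2%. Of 24 measured members of the CREB and CRTC list with a promoter in the table, 4 had a full element and 14 a short element, and of the 8 called lower 1 and 4. The match to letters is a description and does not show that CREB bound there.

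Phosphodiesterases, which break down cyclic nucleotides, changed in both directions. Of 29 phosphodiesterases, adenylyl cyclases and protein kinase A genes, 8 fell (27.6%) and 3 rose (10.3%), beside 1.72% and 3.78% of all genes. The median was 0.10, and 3 of the 8 are also on the CREB and CRTC list. PDE4B read 5.02, 4.90 and 4.99 with LKB1 and 7.31, 7.04 and 7.08 with pBABE, and fell by 2.18 ± 0.16 (adjusted p 2.34e-06). Each group was tight for PDE4B, the array labelled pBABE replicate 3 included. PDE3A fell by 2.99 ± 0.52, from 10.43, 9.51 and 9.11 with pBABE to 7.34, 5.93 and 6.82 with LKB1. PDE10A fell by 1.83 ± 0.32, PDE4D by 0.99 ± 0.20, and PDE11A, a phosphodiesterase of cyclic AMP and cyclic GMP, rose by 2.91 ± 0.31. PDE11A read 8.23, 9.58 and 9.29 with LKB1 and 5.89, 5.77 and 6.71 with pBABE. The groups did not overlap, which held for 99.7% of called genes. Of the lower members 7 and of the higher members 2 were called in each fit that left out 1 array.

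Of 27 YAP and TEAD target genes 9 rose (33.3%, beside 3.78% of all genes), 0 fell, and the median was 0.24. RBMS3, an RNA-binding protein, read 6.45, 6.22 and 6.73 with LKB1 and 4.52, 4.29 and 4.75 with pBABE, and rose by 1.95 ± 0.26. ANKRD1, a nuclear cofactor often used as a YAP readout, rose by 2.60 ± 0.46, from 6.71, 4.98 and 5.86 with pBABE to 8.65, 8.19 and 8.51 with LKB1. The K78I arrays for ANKRD1 stood at 6.71, 8.93 and 8.0, which overlap the LKB1 arrays, and LKB1 minus K78I was 0.57 with an adjusted p of 0.556. CCN2, given above, also rose. In each fit that left out 1 array 7 of the 9 were called.

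Among 31 genes of the TGF-beta, activin and BMP pathways 6 rose (19.4%) and 1 fell (3.23%), with a median of 0.26. Over all genes the shares were 3.78% and 1.72%. With the array labelled pBABE replicate 3 left out, 8 rose and 1 fell. TGFB2, a ligand kept on the mesenchymal and YAP lists, rose by 2.14 ± 0.39, from 8.87, 8.99 and 10.03 to 11.53, 11.45 and 11.34. SMAD7, an inhibitor that the pathway itself induces, read 7.97, 7.94 and 7.79 with LKB1 and 6.39, 6.49 and 6.81 with pBABE, and rose by 1.34 ± 0.15 (adjusted p 9.88e-05). Both groups of SMAD7 were tight. LTBP3, which holds latent TGF-beta in the matrix, rose by 1.62 ± 0.26, ACVR1, a type I receptor, by 1.25 ± 0.21, and PMEPA1, a membrane inhibitor of the pathway, by 1.99 ± 0.37. FST, the activin antagonist follistatin, fell by 2.28 ± 0.54. Its call was lost without any array other than pBABE replicate 3 (adjusted p 0.0506 to 0.0963).

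Mesenchymal and epithelial markers did not move as blocks. Of 24 mesenchymal markers and EMT factors 4 rose (16.7%) and 1 fell (4.17%), beside 3.78% and 1.72% of all genes (median 0.24). The higher count was 1 without pBABE replicate 1 and 2 without LKB1 replicate 3 or pBABE replicate 2. VIM, the intermediate filament vimentin, read 11.78, 11.91 and 11.76 with LKB1 and 11.06, 11.24 and 11.37 with pBABE, and rose by 0.59 ± 0.12, but not without pBABE replicate 1 (adjusted p 0.0623) or with the 9 A549 arrays alone (0.0573). SNAI1, an EMT factor, fell by 0.80 ± 0.21, a call lost without any array other than pBABE replicate 3 (adjusted p 0.0595 to 0.174), with the replicate block (0.0582) and in the fit of the 6 arrays (0.114). SNAI2, its relative, was at 5.72, 8.87 and 6.93 with LKB1 and 4.76, 4.78 and 5.22 with pBABE, with an adjusted p of 0.0631.

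Of 31 epithelial adhesion and keratin genes 3 fell (9.68%) and 1 rose (3.23%), beside 1.72% and 3.78% of all genes, with a median of -0.09. The lower count was 1 without LKB1 replicate 2, LKB1 replicate 3 or pBABE replicate 1. MAL2, an apical transport protein, fell by 2.93 ± 0.43, from 8.16, 7.08 and 6.11 with pBABE to 4.49, 4.15 and 3.93 with LKB1. CDH1, E-cadherin, was at 10.34, 8.86 and 9.73 with LKB1 and 11.36, 10.88 and 10.34 with pBABE, and fell by 1.22 ± 0.30. Leaving out LKB1 replicate 2 or 3 or pBABE replicate 1 or 2 ended that call (adjusted p 0.0766 to 0.137), and so did the fit of the 6 arrays (0.128) and the replicate block (0.0543). TJP1, a tight junction scaffold, rose by 0.72 ± 0.11 (adjusted p 0.00134).

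**Figure D3:**
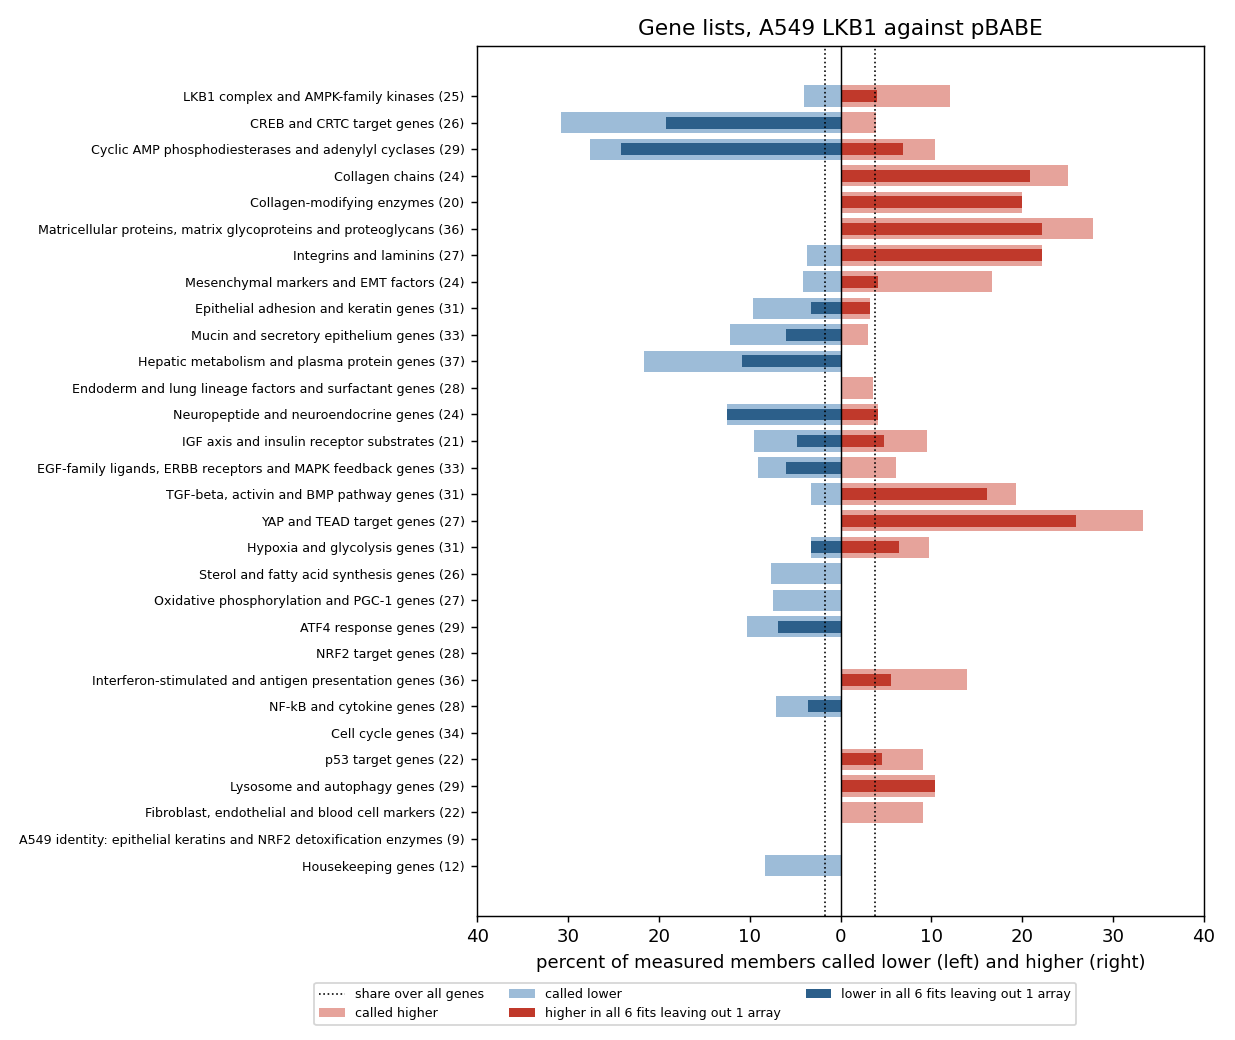
Percent of measured members (x axis; number measured in brackets) called lower, to the left, and higher, to the right, in 30 gene lists (y axis), A549 LKB1 against pBABE. Dark bars are members called in all 6 fits that leave out 1 array, and dotted lines the shares over all genes, 1.72% and 3.78%; the YAP and TEAD list has 9 of 27 higher and the CREB and CRTC list 8 of 26 lower.

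Hypoxia and glycolysis genes had 3 higher and 1 lower of 31 (9.68% and 3.23%, beside 3.78% and 1.72% of all genes; median 0.19), led by SLC2A1, the main glucose transporter of cancer cells, at 11.88, 12.06 and 11.95 with LKB1 and 10.83, 10.51 and 11.06 with pBABE. SLC2A1 rose by 1.16 ± 0.16, and EPAS1, the hypoxia factor HIF-2 alpha, fell by 1.64 ± 0.27. The hypoxia counts were 5 and 1 without LKB1 replicate 2 and 4 and 2 without pBABE replicate 3. ATF4 response genes had 0 higher and 3 lower of 29 (10.3% lower, median -0.45). Among them SLC7A5, the light chain of an amino acid exchanger, fell by 0.69 ± 0.12. The median of the ATF4 list was -0.16 without pBABE replicate 1. Sterol and fatty acid synthesis had 2 lower of 26 (7.69%; median -0.06) and oxidative phosphorylation 2 lower of 27 (7.41%; median -0.15), none of them called in every fit that left out 1 array. NRF2 targets had 0 called of 28 (median 0.02). TP53I3, an oxidoreductase induced by p53, rose by 1.81 ± 0.26, 1 of 2 called members among 22 p53 targets (9.09% higher, median 0.22). The p53 count was 4 without pBABE replicate 1 and 1 without LKB1 replicate 1, LKB1 replicate 3 or pBABE replicate 2. NPC2, a lysosomal cholesterol carrier, rose by 1.28 ± 0.18 with LKB1 arrays between 10.99 and 11.01 and pBABE arrays between 9.65 and 9.88. RRAGD, a lysosomal GTPase that signals amino acids, rose by 1.29 ± 0.25 and MITF, a lysosome gene factor, by 1.28 ± 0.25. They were the other 2 called of 29 lysosome and autophagy genes (10.3% higher), whose median was 0.04.

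Interferon-stimulated and antigen presentation genes had 5 higher (13.9%) and 0 lower of 36, with a median of 0.14. Over all genes the shares were 3.78% higher and 1.72% lower. The interferon count was 2 without LKB1 replicate 3 and 3 without pBABE replicate 1 or 2. PARP9, an interferon-induced ADP-ribosyltransferase, rose by 1.13 ± 0.15. In the list of NF-kB and cytokine genes 2 of 28 fell (7.14%, median -0.02), among them CXCL5, a neutrophil chemokine, by 1.72 ± 0.30. That count was 3 without pBABE replicate 3 and 1 without any other single array. Of 33 EGF-family, ERBB and MAPK feedback genes 2 rose (6.06%) and 3 fell (9.09%), with a median of -0.16. Among them ETV4, an ERK-induced factor, fell by 0.89 ± 0.15. The higher count was 0 without any one array other than pBABE replicate 3, and the lower count 5 without pBABE replicate 3. The IGF axis had 2 higher (9.52%) and 2 lower (9.52%) of 21, with a median of 0.06. Of these, IGFBP7 and INSL4 were called in each fit that left out 1 array. ABCA3, the surfactant lipid transporter, rose by 1.2 ± 0.27, the 1 called of 28 endoderm, lung lineage and surfactant genes (3.57%). The median of that list was -0.06. ABCA3 was not called without LKB1 replicate 1 or 3 or pBABE replicate 2 (adjusted p 0.0613 to 0.0854).

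Of 34 cell cycle genes 0 passed the test, beside 5.5% of all genes, with a median of 0.09. TOP2A, topoisomerase II alpha, was at 11.20 ± 0.05 with LKB1 and 11.27 ± 0.20 with pBABE (SD, n = 3 each). The list's level relative to its mean over the 6 arrays was lowest on pBABE replicate 1, at -0.49, and between -0.09 and 0.22 on the other 5. Among 22 markers of fibroblasts, endothelium and blood, 2 rose (9.09%, beside 3.78% of all genes), 0 fell, and the median was -0.02. PDGFRA, a fibroblast receptor, rose by 0.87 ± 0.24 and FBLN1, fibulin 1, by 0.60 ± 0.17; either call was lost without most single arrays, PDGFRA's without any but LKB1 replicate 2 (adjusted p 0.0595 to 0.206) and FBLN1's without any but pBABE replicate 3 (0.0642 to 0.189). DCN, the fibroblast proteoglycan decorin, read 2.64 ± 0.02 with LKB1 and 2.67 ± 0.13 with pBABE, and PTPRC, the leukocyte antigen CD45, 3.06 ± 0.10 and 3.15 ± 0.13. COL6A3 and LUM, also of fibroblasts, differed by -0.02 ± 0.12 and 0.11 ± 0.17. Levels of this list relative to the mean over the 6 arrays ran from -0.06 to 0.06. Among 12 housekeeping genes 1 fell (8.33%, beside 1.72% of all genes) and 0 rose. The gene that fell was TFRC, the transferrin receptor (-0.66 ± 0.15). TFRC was not called without LKB1 replicate 1, LKB1 replicate 3 or pBABE replicate 2 (adjusted p 0.0643 to 0.0819).

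Of 180 genes annotated as miRNAs, 2 rose and 0 fell, beside 3.78% and 1.72% of all genes; both are named after their values were seen. Their mature products are shown so that the seeds, bases 2 to 8 in capitals, can be read; the sequences are those of RefSeq (GRCh38.p14), and the arrays measured probe sets of the genes, not the mature miRNAs. No seed is shared among the 4.
hsa-miR-218-5p: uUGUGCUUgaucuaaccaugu
hsa-miR-218-2-3p: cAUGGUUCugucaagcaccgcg
hsa-miR-503-5p: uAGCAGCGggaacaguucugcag
hsa-miR-503-3p: gGGGUAUUguuuccgcugccagg

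MIR218-2, at chr5:168768168-168768231 for the span of its mature products, lies inside SLIT3, which encodes a secreted guidance ligand. MIR218-2 read 6.65, 5.97 and 6.46 with LKB1 and 4.66, 4.36 and 4.80 with pBABE, and rose by 1.75 ± 0.18 (adjusted p 4.14e-05). SLIT3 itself read 9.93, 9.75 and 9.86 with LKB1 and 6.47, 6.48 and 8.14 with pBABE, and rose by 2.82 ± 0.38. Both genes had separate groups, which held for 99.7% of called genes. SLIT3 was highest among vector arrays on the one labelled pBABE replicate 3. MIR218-1 differed by -0.06 ± 0.16 and SLIT2, another SLIT ligand, by 0.01 ± 0.16. MIR503, at chrX:134546331-134546393, lies inside the noncoding gene MIR503HG. MIR503 rose by 1.37 ± 0.30 and MIR503HG by 1.13 ± 0.25, but MIR503 was not called without LKB1 replicate 2 or 3 (adjusted p 0.0596 and 0.0634), nor MIR503HG without these or pBABE replicate 2 (0.0668 to 0.0704). Probe sets of a small RNA gene and of its host can read the same transcript.

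The 3 arrays labelled pBABE were not alike in their distance from the LKB1 arrays. Over the 987 called genes the median distance from the LKB1 mean, in the direction of the change, was 1.04 for replicate 1, 1.03 for replicate 2 and 0.743 for replicate 3. The array labelled pBABE replicate 3 was the nearest of the 3 for 705 genes, replicate 1 for 154 and replicate 2 for 123, with ties for 5. OR51E2, SLPI, FGA and ITGB6 were among the genes with this pattern, while CNTN1, DEFB1 and ITGA11 had pBABE arrays close together. Across all genes that array differed from the LKB1 arrays by an SD of 0.393 to 0.400, from K78I replicate 1 by 0.264, from pBABE replicate 2 by 0.293 and from pBABE replicate 1 by 0.455. Leaving it out raised the number of genes called lower from 309 to 396 and of those called higher from 678 to 697, and 856 of the 987 genes were called both times. The part of its STK11 level in these distances was not tested.

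**Figure D4:**
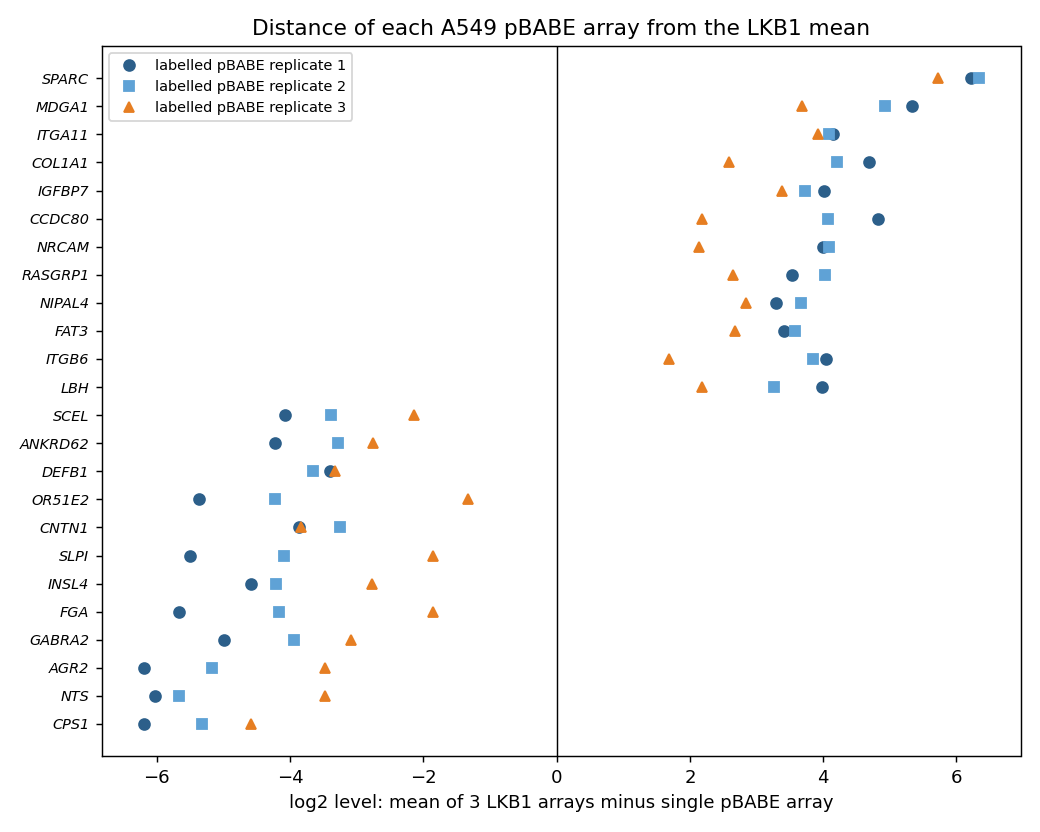
Mean log2 level of the 3 LKB1 arrays minus the level on each single array labelled pBABE (x axis), for the 12 highest and 12 lowest called differences (y axis). The array labelled replicate 3 lies closest to 0 for most genes, but for SPARC, ITGA11, DEFB1 and CNTN1 it lies with the other 2.

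The comparison with the kinase-dead control uses the same LKB1 arrays, so it is not independent of that with the vector. LKB1 minus K78I was 6.22 for SPARC, 3.98 for COL1A1, -5.17 for NTS, -5.36 for CPS1 and -2.26 for PDE4B. For TGFB2, CCN2 and ANKRD1 it was 1.41, 1.33 and 0.57, where LKB1 minus pBABE was 2.14, 2.25 and 2.60. In all 943 genes were called (5.25%), 639 higher (3.56%) and 304 lower (1.69%), or 494 and 396 with median centring. With single LKB1 or pBABE arrays left out that count ran from 421 without LKB1 replicate 3 to 1019 without pBABE replicate 1, and it was 407 with the 9 A549 arrays alone and 1930 with array weights. K78I minus pBABE, which tests the difference between both effects, called 0 genes by limma (0% in either direction), and 472 genes (2.63%) had an unadjusted p under 0.05. Leaving out the arrays labelled pBABE replicate 3 and K78I replicate 2 together gave 35. For the collagen chains the counts against K78I were 6 higher and 0 lower, and for the CREB and CRTC list 0 and 10. Of the 27 YAP and TEAD targets 7 were higher and 0 lower against K78I, where 9 and 0 were against pBABE. The median over the CREB and CRTC list was -1.46 against K78I and -0.84 against pBABE, and over the YAP and TEAD list 0.01 and 0.24. Relative to the mean over the 6 LKB1 and pBABE arrays, K78I arrays 1, 2 and 3 stood at 0.21, 1.77 and 0.46 for the CREB and CRTC list. For the YAP and TEAD list they stood at -0.20, 0.55 and -0.01. K78I replicate 2, whose STK11 level goes against its label, was the highest in both and at -0.99 for the cell cycle list. Its part in these medians was not tested.

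In H2122 the same contrast called 1037 genes (5.77%), 749 higher (4.17%) and 288 lower (1.6%). With median centring the split was 628 and 465, and the count was 214 without the 3 H2122 arrays whose source name and title disagree. Of the 678 genes that rose in A549, 196 rose in H2122 too, which is 28.9% of the A549 list and 26.2% of the H2122 list, and 4 fell there. Of the 309 that fell in A549, 32 also fell in H2122 (10.4% and 11.1% of the lists) and 5 rose. The difference of the effect between lines, tested as an interaction, was called for 402 genes (2.24%), 166 higher (0.924%) and 236 lower (1.31%), among them 114 of the 678 (16.8%) and 53 of the 309 (17.2%). Without the 3 arrays in doubt 76 genes had a called difference, and with LKB1 replicate 3, pBABE replicate 2 or pBABE replicate 1 of A549 left out the count was 175, 207 or 246.

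SPARC, which rose by 6.09 in A549, differed by -0.13 in H2122, where it was at 3.88 with LKB1 and 4.01 with pBABE, and the interaction was 6.22 (adjusted p 1.76e-07). COL1A1 differed by -0.51 in H2122 (interaction 4.33, adjusted p 0.00274), and ITGA11 by -0.13 (interaction 4.18, adjusted p 1.06e-06). NTS was at 3.77 and 3.83 in H2122 and differed by -0.06 (interaction -5.00, adjusted p 0.00776). IGFBP7 rose by 3.72 in H2122 as against 3.71 in A549, with an interaction of -0.01. ITGB6 rose by 2.72 there (interaction 0.47), CPS1 fell by 2.60 (interaction -2.77, adjusted p 0.0969) and PDE3A fell by 2.97 (interaction -0.02). The interaction p was above 0.05 for ITGB6, CPS1, PDE3A and IGFBP7, which does not show that the lines responded alike.

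**Figure D5:**
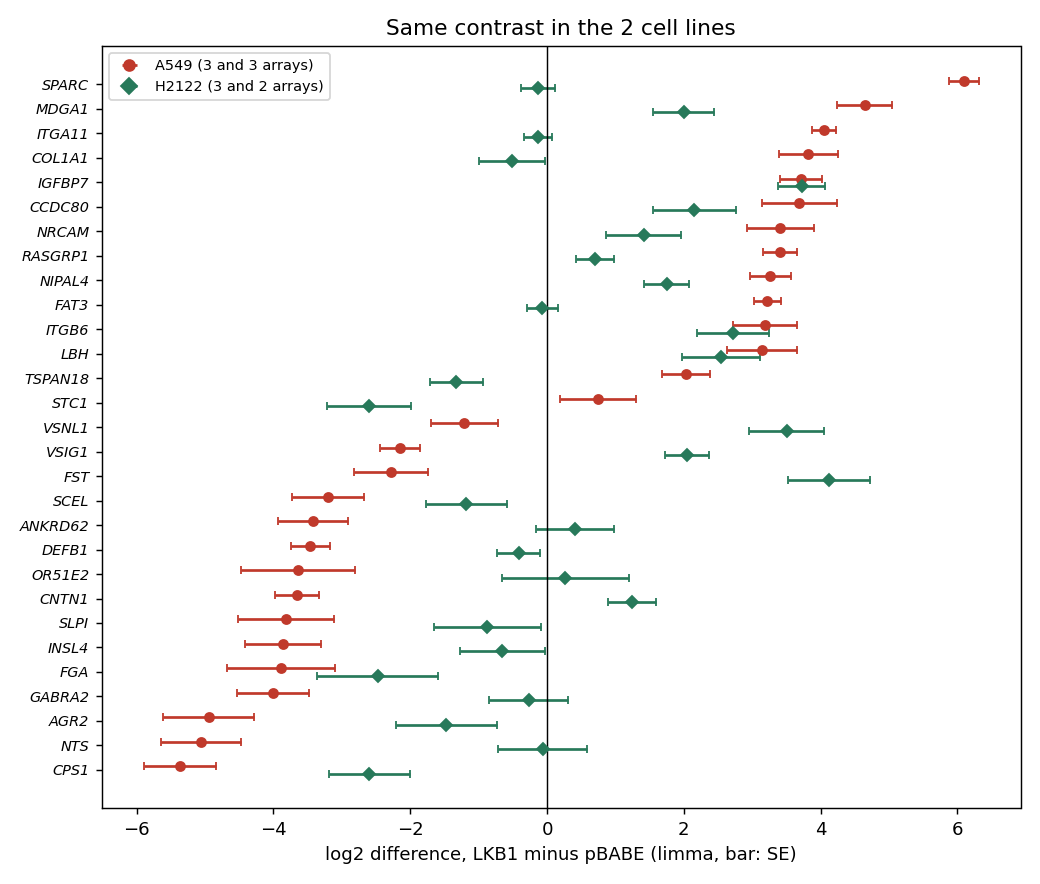
Log2 difference of LKB1 minus pBABE (x axis; bars are the limma SE) in A549 (circles, 3 and 3 arrays) and H2122 (diamonds, 3 and 2 arrays) for the 24 largest called A549 differences (12 each way) and 5 with large differences between lines (y axis). IGFBP7 has nearly the same value in both lines, 3.71 and 3.72, and SPARC is at 6.09 and -0.13.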

How the data were processed

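The members and gene lists were chosen with earlier results of these data known. The deposited values are log2 levels made by the authors with RMA (Affymetrix Expression Console 1.1), as the submitters' processing notes record. RMA makes array distributions alike, so a shift of most genes one way cannot be seen. The build the authors' probe annotation used is not stated in those notes; printed coordinates are RefSeq's. The platform annotation gave 1 symbol to 19181 of 33297 probe sets, several to 2055 and none here to 12061, and 19143 identifiers matched RefSeq. Where a gene had more than 1 probe set (895 genes), the brightest on average was used, which left 17958 genes. Groups came from titles.

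The test was limma 3.58.1 in R 4.3.3 on all 17 arrays in 6 groups (11 residual degrees of freedom, prior 3.8), with Benjamini-Hochberg adjustment over all genes and a threshold of 0.05. The number of arrays limits the precision. Data for 17958 genes were simulated for this comparison. There 22.4% of 67 genes shifted by 0.5 log2 units, 64.2% of 67 shifted by 1 and 97.0% of 66 shifted by 2 were called. Of the 132 calls 7.58% were false. The simulated noise was independent between genes and arrays, around 1 mean per gene. Arrays displaced across many genes at once were not simulated, so these shares need not hold for the real arrays.

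Named genes were STK11, SPARC, COL1A1 and NTS; the 12 highest and 12 lowest called differences with separate groups; up to 4 called members per list by adjusted p; called CREB and CRTC members whose promoter holds an element; and the 5 called line differences at either end. Uncalled members may be named with their values. COL6A1, COL18A1, EFEMP1, MATN2, SPOCK1, TGFBI, ITGA3, ITGB4, ITGB5, RBP4, NR4A1, SLC2A12, SLIT3, the miRNA genes with MIR503HG, and the HOX genes were named after their values were seen. Alternatives were each of the 6 A549 LKB1 and pBABE arrays left out, a replicate block, and fits of 6 or 9 arrays. Others were quantile normalization, median centring, mean probe sets, array weights, a trended robust prior and dropping the dimmest 30% of genes. After seeing the data, 2 more were tried, leaving out the 2 A549 arrays at odds with STK11 or the 3 H2122 arrays with conflicting labels. matplotlib 3.10.9 drew the figures.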

Additional observations from a re-analysis of the deposited data

Results flagged for a closer look

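The effect of LKB1 differed between A549 and H2122, by limma's interaction test over all genes, for each gene below; values are the A549 log2 difference minus the H2122 log2 difference. About 2.24% of all genes had such a difference, and the 3 H2122 arrays with conflicting labels enter these values.

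Some matrix and adhesion genes were among them. The difference between lines was 6.22 for SPARC, 4.33 for COL1A1, 4.18 for ITGA11, 1.54 for LOXL4 and 1.51 for P4HA3. The adhesion genes MDGA1 and FAT3 stood at 2.65 and 3.29. SPARC, ITGA11 and FAT3 were low in both H2122 groups, at 3.88 and 4.01, 4.50 and 4.63, and 3.42 and 3.49 with LKB1 and with pBABE. As lists, matrix genes also rose in H2122. There 6 of 24 collagen chains and 9 of 20 collagen-modifying enzymes rose and 0 fell. Of 36 matricellular and other matrix genes 13 rose, and of 27 integrins and laminins 8, with 0 lower. Over all genes in H2122 the shares were 4.17% and 1.6%. In these 4 lists, in that order, the difference between lines was called for 3, 4, 2 and 3 genes.

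Genes with a negative difference between lines included NTS (-5.00), GABRA2 (-3.73) and DDC (-2.24) of the neuropeptide and neuroendocrine list. CNTN1 was at -4.89, ANKRD62 at -3.83, DEFB1 at -3.05, MAL2 at -2.82, CXCL5 at -2.25 and C3 at -2.03. The phosphodiesterase PDE4B was at -1.14 and the sterol enzyme SC5D at -0.85. NTS was low in both H2122 groups, at 3.77 and 3.83.

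Other positive differences were 3.01 for PDE11A, 2.70 for RASGRP1, 2.03 for ABCA3, 1.84 for ENO2 and 0.99 for PARP9.

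A few genes had estimates of opposite sign in the lines. FST, the activin antagonist, fell by 2.28 in A549 and rose by 4.12 in H2122, a difference between lines of -6.40. VSNL1, a neuronal calcium sensor, was at -1.21 in A549 and 3.50 in H2122 (difference -4.72), and VSIG1, an adhesion protein of the gastric epithelium, at -2.15 and 2.05 (difference -4.20). TSPAN18, a tetraspanin, was at 2.03 in A549 and -1.32 in H2122 (difference 3.35), and STC1, the hormone stanniocalcin 1, at 0.74 and -2.60 (difference 3.35). VSNL1 and STC1 were not called in A549, so for them a change opposite to that in H2122 is not shown.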

How the results depend on the processing

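For the 987 genes called in A549, the count was 548 with the 9 A549 arrays alone, 3829 with array weights, 1803 without the 2 arrays whose STK11 level goes against the label, and 505 to 1093 with 1 array left out. With array weights 52.1% of calls were higher, against 68.7%. The difference between lines, called for 402 genes, gave 175 to 398 with 1 A549 LKB1 or pBABE array left out. It gave 809 without the 2 arrays and 76 without the 3 H2122 arrays. K78I against pBABE gave 0 to 2 with 1 LKB1 or pBABE array left out and 35 without the 2 arrays. No K78I array was left out alone, so the dependence of that count on single K78I arrays was not tested. With the replicate number as a block 1001 genes were called, 839 of them among the 987. By the rule that every correlation exceed 0.1, the numbers were not taken to pair the samples: deviations of LKB1 and pBABE arrays with the same number correlated at 0.352, 0.158 and 0.0174. LKB1 arrays 1 and 3 correlated best with the pBABE array of their own number, and LKB1 array 2 with pBABE 3. The fit of the 9 A549 arrays alone also ended the calls of EREG, RGS2, NR4A1, JUNB, MARK1, SIK3, PRKAA2, SNAI1, CDH1, MIR503, MIR503HG, PDGFRA and FBLN1 (adjusted p 0.0582 to 0.159). The other settings tried kept the main count within 1.5 times, and no named result changed direction. Low levels cannot be told from background here, so differences of dim genes may be understated.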

Other observations

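Of 9 genes of the HOXD cluster tested, homeodomain factors of body patterning, 3 rose and 0 fell with LKB1, beside 3.78% and 1.72% of all genes, and their median difference was 0.14. In the other HOX clusters 0 of 7 HOXC, 0 of 10 HOXB and 0 of 1 HOXA genes were called. HOXD10 read 7.37, 7.41 and 7.76 with LKB1 and 4.59, 4.50 and 5.43 with pBABE, and rose by 2.68 ± 0.29 (limma adjusted p 6.17e-05). HOXD11, its neighbour in the cluster, rose by 1.25 ± 0.13, and HOXD9 by 0.63 ± 0.12. HOXD8 differed by 0.53 with an adjusted p of 0.343. These genes were picked after their values were seen, and no explanation was tested.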
